A study of Mus musculus with 6 samples.

Results

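The genes examined were 10 enzymes and enzyme partners that make or clear eicosanoids, the signalling lipids derived from arachidonic acid and related fatty acids: the Cyp2j cytochrome P450 genes Cyp2j5, Cyp2j6 and Cyp2j9, the soluble epoxide hydrolase Ephx2, the lipoxygenase genes Alox5, Alox5ap and Alox15, the cyclooxygenases Ptgs1 and Ptgs2, and the prostaglandin reductase Ptgr1. They were found by the RefSeq accession of their probes, and all 10 were present, with 12 probes, among 22911 genes with a symbol and 56605 probes in all. Livers came from 6 male mice of a strain not given in the sources used here, which were 12 weeks old when the diets began. The 3 control mice ate 100% granulated regular food, and the 3 soy mice ate 75% of it with 25% soy bean powder, for 4 weeks. Each mouse had 1 single-colour Agilent array, so that n = 3 arrays per group limited the precision of every value. Between 36366 and 38163 spots of each control array were well above background, and between 31308 and 32498 of each soy array. Control 1, control 2 and soy 1 shared slide 1, soy 2 lay on slide 2, and control 3 and soy 3 shared slide 3. The hepatocyte markers were well above background on all 6 arrays for 10 of 10 genes. So were 12 of 12 genes known to be higher in male than in female liver, and 4 of 12 with the opposite bias. In whole liver, fewer cells of a type and less RNA per cell cannot be told apart.

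Arachidonic acid freed from membranes is handled by several enzyme routes. Many cytochrome P450 enzymes of the CYP2J and CYP2C families turn it into epoxyeicosatrienoic acids and some hydroxylate it instead. Soluble epoxide hydrolase opens the epoxides to less active diols, and in rodents hepatocytes carry out much of this chemistry. Lipoxygenases lead to leukotrienes and hydroxy fatty acids, cyclooxygenases lead to prostaglandins and thromboxane, and both routes are best known from leukocytes and platelets.

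The Cyp2j genes lie side by side on mouse chromosome 4, and the 250 bases before the annotated start of the 3 members are shown because these neighbours gave different values on the same arrays. The sequences are those of RefSeq on assembly GRCm38.p6, read 5′ to 3′ on the minus strand, at chr4:96664120-96664369 for Cyp2j5, chr4:96553652-96553901 for Cyp2j6 and chr4:96591486-96591735 for Cyp2j9. Capitals mark matches to any of 5 short motifs, sought on both strands: the nuclear receptor half-site AGGTCA, the antioxidant response element core TGACNNNGC, the E-box CACGTG, the TATA motif TATAAA and the CCAAT motif CCAAT.
Cyp2j5: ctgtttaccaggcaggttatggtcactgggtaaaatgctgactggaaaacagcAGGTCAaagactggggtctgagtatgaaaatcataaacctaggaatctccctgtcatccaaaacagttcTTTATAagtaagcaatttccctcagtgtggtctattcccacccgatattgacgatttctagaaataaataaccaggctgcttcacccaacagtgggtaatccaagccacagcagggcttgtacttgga
Cyp2j6: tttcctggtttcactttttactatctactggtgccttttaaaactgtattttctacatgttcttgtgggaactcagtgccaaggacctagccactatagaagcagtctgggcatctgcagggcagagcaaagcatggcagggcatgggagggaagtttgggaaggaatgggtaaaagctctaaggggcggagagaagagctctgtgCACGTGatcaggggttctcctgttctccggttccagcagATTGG
Cyp2j9: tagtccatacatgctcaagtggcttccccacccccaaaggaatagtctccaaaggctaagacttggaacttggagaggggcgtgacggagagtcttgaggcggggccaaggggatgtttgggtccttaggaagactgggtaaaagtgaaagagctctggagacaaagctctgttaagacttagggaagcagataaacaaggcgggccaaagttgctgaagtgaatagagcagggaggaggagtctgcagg
The Cyp2j5 window held AGGTCA at positions -197 to -192 from the start and TATAAA on the opposite strand at positions -128 to -123. In the Cyp2j6 window stood CACGTG at positions -44 to -39 and CCAAT on the opposite strand at positions -5 to -1. None of the 5 motifs was found in the Cyp2j9 window. Of 32851 windows of the same length, 14.0% held AGGTCA, 10.2% held TGACNNNGC, 6.02% held CACGTG, 12.4% held TATAAA and 33.8% held CCAAT. Windows were at hand for 7 of the 10 members, and the motif matches are a description of letters only.

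In the limma fit made here, with the thresholds used in the study (a fold change above 1.5 or below 0.66 at an adjusted p under 0.05, Benjamini-Hochberg adjustment over every probe), 0 of the 10 genes passed, where 0.532% of all genes did. At an unadjusted p under 0.05 there were 3 of 10, Cyp2j6, Cyp2j9 and Ephx2, against a background of 14.2%. Soy values lay above all control values for Cyp2j9, Ephx2 and Alox15, 3 of 10 genes, where 9.66% of all genes did so, and below all control values for 0 of 10, where 10.8% did (20.4% in either direction). The change (soy minus control, log2) was above 0 for 8 of 10 genes, with a median of 0.08, where 11188 of 22911 genes were above 0 and the median was -0.01. Among the 7 members well above background on all 6 arrays it was above 0 for 5 and below 0 for 2. Of these 7, only Cyp2j9 and Ephx2 had soy values above all control values, where 13.3% of such genes did. Soy values were below all control values for 0 of the 7, where 12.2% of such genes were. Of the members outside these 7, Alox5 and Ptgs2 were well above background on no array and Alox15 on 1 soy array. Levels below are normalized signals (log2) of the brightest probe of a gene. Probes differ in brightness, so the signals of different genes do not measure their relative abundance.

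**Figure D1:**
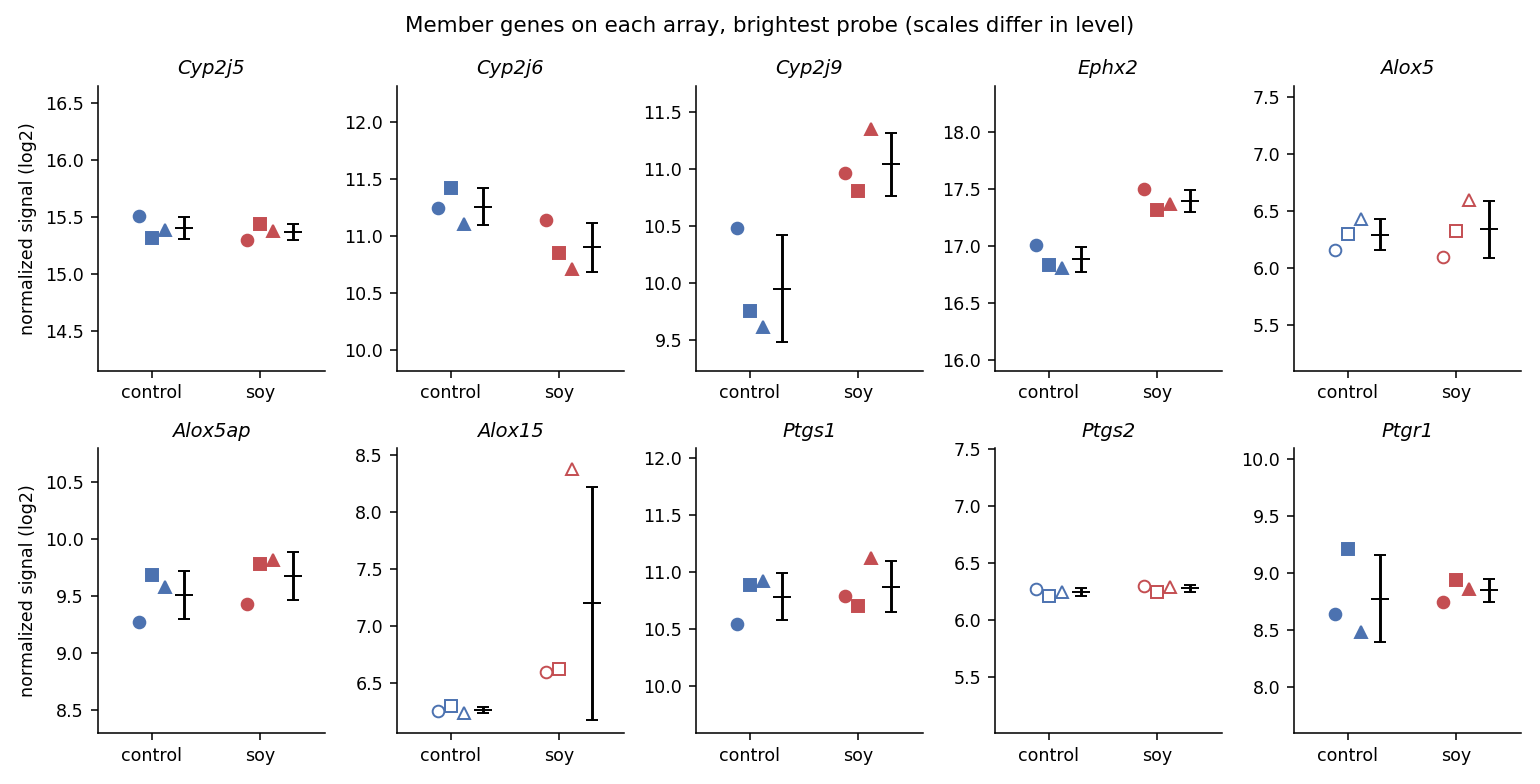
Normalized signal (log2) of the 10 genes on each array, by the brightest probe, for control (blue) and soy (red) livers. Circles, squares and triangles are replicates 1, 2 and 3, open symbols mark a group in which the probe was not well above background on all 3 arrays, and bars give the mean and SD. Soy points lie above all control points for Cyp2j9, Ephx2 and Alox15, and for Alox15 the distance comes mostly from soy 3 at 8.37.

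Cyp2j9, a P450 first known from brain and described there as a hydroxylase of arachidonic acid, had the largest change among the members that were well above background on all arrays. Its signal (NM_028979) was 10.48, 9.76 and 9.61 in control 1, 2 and 3 and 10.97, 10.81 and 11.35 in soy 1, 2 and 3. Before normalization the median spot intensity of control 1 (1725) was above that of soy 2 (1535). After normalization all soy arrays were higher than all control arrays, and control 1 stood closest to the soy arrays. The change was 1.09 (SE 0.24, 95% interval 0.52 to 1.66), a fold change of 2.13 (1.44 to 3.16), and it did not pass (adjusted p = 0.140, limma). An exact two-sided permutation test gave p = 0.1, the smallest that 3 against 3 arrays allow. Among 13513 genes well above background on all 6 arrays, its change lay at percentile 99.3. Within slide 1 the difference was 0.85, and within slide 3 it was 1.74. Without control 1 the change was 1.36 with an adjusted p of 0.0611. With any other array left out it ran from 0.92 to 1.21, with adjusted p from 0.251 to 0.344. Over the 18 alternative settings the change ran from 0.92 to 1.36 and the adjusted p from 0.0322 to 0.344, and it passed under 1 of them, the Agilent processed signal (1.16, adjusted p = 0.0322).

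Cyp2j5, the epoxygenase known to be abundant in mouse liver and kidney, had overlapping values in the diet groups. Its signal (NM_010007) was 15.51, 15.32 and 15.39 in the control arrays and 15.30, 15.44 and 15.38 in the soy arrays. The groups overlapped throughout, and the change was -0.03 (SE 0.10, 95% interval -0.27 to 0.20, adjusted p = 0.927), so that a fold change above 1.15 or under 0.831 lay outside the interval. A dimmer Cyp2j5 probe gave -0.10 (adjusted p = 0.833). Cyp2j6, a P450 known from small intestine and liver, had a lower mean in soy livers. For NM_010008 the signal was 11.24, 11.43 and 11.11 in control and 11.14, 10.85 and 10.71 in soy. Soy 2 and soy 3 were below every control array, while soy 1 fell between control 3 and control 1. The change of -0.36 (SE 0.14, 95% interval -0.69 to -0.03) had an unadjusted p of 0.0380 in the limma fit and did not pass (adjusted p = 0.400). Its dimmer probe gave -0.37 (SE 0.17, adjusted p = 0.470), close to the brighter one.

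The annotation of GRCm38.p6 places 7 protein-coding Cyp2j genes in 1 run on chromosome 4, with no other protein-coding gene between them, and 6 of these genes had a probe. Cyp2j9 stands between Cyp2j6 and Cyp2j5 in that order. Cyp2j8 changed by -0.10 (SE 0.09, adjusted p = 0.729) and Cyp2j13 by -0.09 (SE 0.11, adjusted p = 0.805). For Cyp2j11 the probe was well above background on soy 2 only, at 8.30 against 6.07 to 6.43 on the other arrays, and the adjusted p was 0.716. The log2 signal of Cyp2j9, chosen because it had the largest change, was then set against that of each neighbour on the same array, where any shift of a whole array drops out. The difference Cyp2j9 minus Cyp2j6 was -0.76, -1.67 and -1.49 in control and -0.17, -0.04 and 0.64 in soy livers. It was thus higher on every soy array, by 1.45 on average. The same comparison gave 1.13 against Cyp2j5, 1.19 against Cyp2j8 and 1.18 against Cyp2j13, without overlap between the groups in any of these 4 pairs. These 4 differences share the Cyp2j9 probe, largely restate its own change of 1.09, and are given as a description with no test. How far the probes of these related genes cross-hybridize was not tested.

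**Figure D2:**
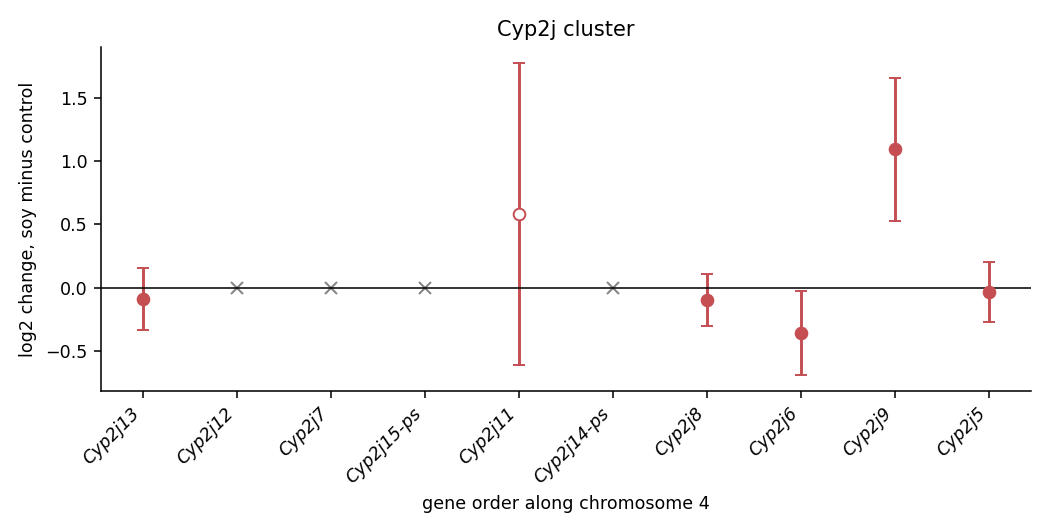
Log2 change (soy minus control) of the Cyp2j genes in their order along chromosome 4, with 95% intervals from limma. Open circles mark a probe not well above background on all 6 arrays and crosses on the line mark genes that were not matched on the array, which have no value. Cyp2j9 at 1.09 stands above Cyp2j8, Cyp2j6, Cyp2j5 and Cyp2j13, which lie between -0.36 and -0.03.

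The gene whose 6 array values lay nearest to those of Cyp2j9, each gene centred on its own mean, was Cyp2c39, a P450 of the Cyp2c family, at a root mean square distance of 0.11 (log2) among 13497 genes. Its signal (NM_010003) was 8.49, 7.79 and 7.40 in control and 8.75, 8.63 and 9.09 in soy. As with Cyp2j9, control 1 was the highest control array and soy 3 the highest of all. The change was 0.94 (SE 0.27) and did not pass (adjusted p = 0.232). The transcription factor gene E2f2 (distance 0.15, change 0.80, adjusted p = 0.301) and the kinase gene Sgk2 (distance 0.17, change 1.18, adjusted p = 0.0531) came next. Among the 6 other members well above background on all arrays, Ephx2 was nearest, at 0.39, and Cyp2j6 was farthest, at 0.82. These distances describe 6 arrays and carry no test.

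Ephx2, the soluble epoxide hydrolase that clears epoxyeicosatrienoic acids, was higher on each soy array after normalization. Its signal (NM_007940) was 17.01, 16.83 and 16.81 in control and 17.50, 17.31 and 17.37 in soy. The lowest soy array was above the highest control array, by more than the SD of either group (0.11 and 0.10, n = 3 each). The change was 0.51 (SE 0.11, 95% interval 0.26 to 0.76), a fold change of 1.43 (1.20 to 1.69), and it did not pass (adjusted p = 0.117). Its fold change was also under the threshold of 1.5. The difference was 0.58 within slide 1 and 0.56 within slide 3. Over the 18 alternatives it ran from 0.44 to 0.57 with adjusted p from 0.0539 to 0.318. Before normalization the median spot intensity was 164647, 123891 and 107846 in control and 165181, 147941 and 156939 in soy. There control 1 lay above soy 2 and soy 3.

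The gene of the microsomal epoxide hydrolase, Ephx1, which acts mainly on foreign epoxides and also on epoxyeicosatrienoic acids, rose in soy livers. Its signal was 16.45, 15.82 and 16.46 in control and 17.43, 17.51 and 17.45 in soy. The soy arrays lay close together and far above control, a change of 1.22 (SE 0.18, 95% interval 0.80 to 1.63), or 2.32-fold (adjusted p = 0.0473). It was the only gene among 79 others of eicosanoid metabolism that passed, and its call was near the threshold. The difference was 1.29 within slide 1 and 0.98 within slide 3, and with the slide as a block it did not pass (1.16, adjusted p = 0.212). Of the 6 fits that left out 1 array it passed in 1, without control 2 (adjusted p = 0.0469), and over the 18 alternatives the change ran from 1.00 to 1.32 and the adjusted p from 0.0103 to 0.212. Ephx3 changed by 0.16 (SE 0.16, adjusted p = 0.753). Ephx4 was well above background on no control array and on 2 soy arrays, at 7.51 and 9.88, with soy 3 at 6.44 within the control range, and did not pass (adjusted p = 0.498). No fold is given for it, since the Ephx4 change (log2) was 0.54 without soy 2 and 2.26 without soy 3.

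**Figure D3:**
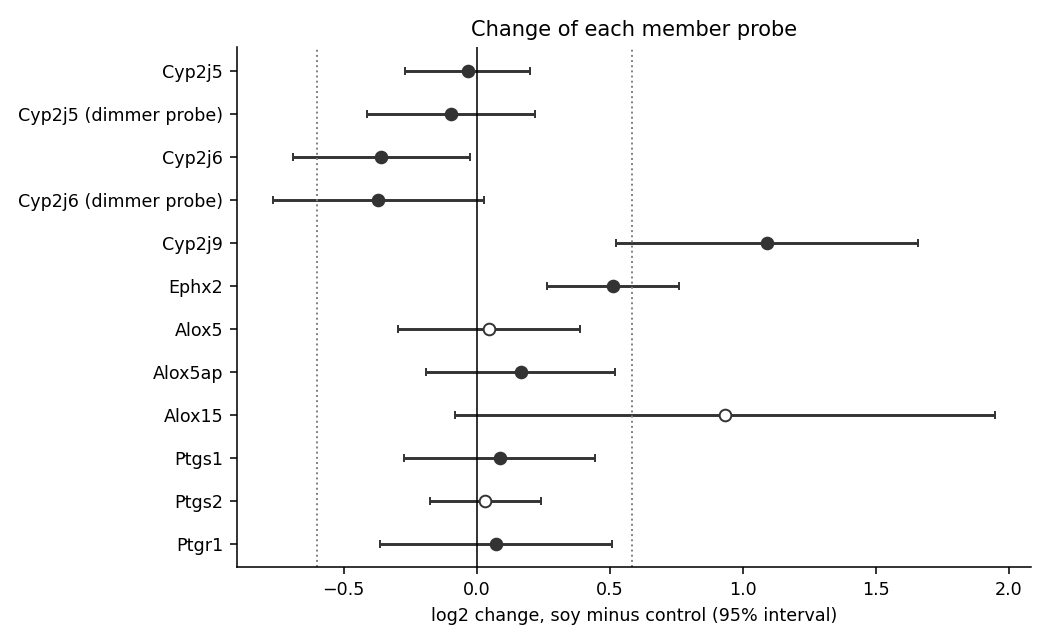
Log2 change (soy minus control) of the 12 probes of the 10 genes, with 95% intervals from limma. Filled circles are probes well above background on all 6 arrays, open circles the others, and dotted lines mark the fold changes of 1.5 and 0.66. The intervals of Cyp2j9, Ephx2 and the brighter Cyp2j6 probe do not reach 0, but no probe passed after adjustment over all probes.

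On the lipoxygenase route, no gene passed. Alox5 (NM_009662), the 5-lipoxygenase that starts leukotriene synthesis, was well above background on no array and had values of 6.15, 6.29 and 6.43 in control and 6.10, 6.32 and 6.59 in soy, so that no fold is given. Alox5ap (NM_009663), whose product presents arachidonic acid to that enzyme, was measured on all arrays, at 9.28, 9.69 and 9.58 in control and 9.43, 9.78 and 9.82 in soy. Its groups overlapped and the change was 0.17 (SE 0.15, 95% interval -0.19 to 0.52, adjusted p = 0.729). Alox5ap is a leukocyte gene, and the 13 Kupffer cell markers (resident liver macrophages), all well above background on all 6 arrays, had mean signals of 11.50, 11.95 and 12.26 in control and 11.75, 12.01 and 12.35 in soy. The brightest of these markers, Cd5l, was 13.34, 14.10 and 14.08 in control and 13.97, 14.29 and 14.61 in soy. Control 1 was lowest and soy 3 highest for Alox5ap, for Cd5l and for the mean of the markers, and the part of macrophage content in the Alox5ap values was not tested.

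Alox15 (NM_009660), the 12/15-lipoxygenase of eosinophils and some macrophages, rested on a single array. Its signal was 6.26, 6.29 and 6.24 in control and 6.59, 6.62 and 8.37 in soy, and soy 3 was the only array on which the probe was well above background. Before normalization the median spot intensity was 340 on soy 3 and 76.5 to 126 on the other arrays. The gene did not pass (adjusted p = 0.474), and no fold is given. Without soy 3 the change was 0.35, on arrays that were all not well above background. The eosinophil marker Prg2 was 6.26, 6.34 and 6.75 in control and 7.19, 6.51 and 7.91 in soy, also highest on soy 3, while the markers Epx and Siglecf were well above background on no array. Of the 9 eosinophil and mast cell markers, 5 were never well above background, the mean signal was 6.86, 6.91 and 7.03 in control and 7.04, 7.00 and 7.10 in soy, and the brightest, Kit, was 8.46, 9.06 and 9.64 in control and 9.43, 9.04 and 9.66 in soy. Whether such cells contributed to the Alox15 value of soy 3 was not tested.

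Neither cyclooxygenase gene passed. Ptgs1 (NM_008969), the constitutive cyclooxygenase of platelets and macrophages, was 10.54, 10.88 and 10.92 in control and 10.78, 10.70 and 11.12 in soy. The groups overlapped, with a change of 0.09 (SE 0.15, 95% interval -0.27 to 0.45, adjusted p = 0.873). Ptgs2 (NM_011198), the inducible cyclooxygenase, was well above background on no array, with values between 6.21 and 6.30, and no fold is given. Ptgr1 (NM_025968), which reduces prostaglandin metabolites and inactivates leukotriene B4, was 8.64, 9.21 and 8.48 in control and 8.74, 8.93 and 8.86 in soy. All 3 soy values lay within the control range, and the change was 0.07 (SE 0.19, 95% interval -0.36 to 0.51, adjusted p = 0.917). The Ptgr1 difference was -0.18 within slide 1 and 0.39 within slide 3.

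The surrounding pathway was read from 9 lists with 81 genes, of which 79 were on the array. In these lists 1 gene passed higher, where 0.34% of all genes did, and 0 passed lower, where 0.192% did. Changes were above 0 for 40 and below 0 for 39 of the 79 genes, with a median of 0.01. The Cyp2c genes, the other large P450 family with members that make epoxyeicosatrienoic acids, had 0 of 15 genes past the test. Even so, 13 of the 15 had a lower mean in soy, 12 of them without overlap between the groups, against 10.8% of all genes, and the median change was -0.46. Of these 15, Cyp2c65 was well above background on no array and Cyp2c66 on 1 control array, and of the other 13 genes 11 had a lower mean, 10 of them without overlap, against 12.2% of genes well above background on all 6 arrays. Among the brightest, Cyp2c29 changed by -0.22 (adjusted p = 0.472), Cyp2c67 by -0.44 (adjusted p = 0.202) and Cyp2c70 by -0.59 (adjusted p = 0.311). Cyp2c50, chosen after its values were seen, came nearest to passing, with a change of -0.81 (SE 0.14, adjusted p = 0.0714), and over the 18 alternatives its adjusted p ran from 0.00706 to 0.254, under the threshold in 4. Cyp2c39 was the only one of the 15 above all control values. These genes are close paralogs whose probes may share transcripts, so the 15 are not independent. Of the 10 hepatocyte markers 8 had a lower mean in soy, 1 of them without overlap, and 2 a higher one. Their mean signal was 17.48, 17.49 and 17.42 in control and 17.35, 17.29 and 17.27 in soy livers. Any part of hepatocyte content in the Cyp2c values was not tested.

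Among the enzymes that release arachidonic acid and related lipids, 0 of 12 genes passed and the median change was 0.04. Mgll, the monoacylglycerol lipase, changed by 0.40 (SE 0.16, adjusted p = 0.399), Pla2g4b by -0.05 (adjusted p = 0.903) and Faah, the fatty acid amide hydrolase, by 0.17 (adjusted p = 0.562). Of the other lipoxygenases 0 of 5 passed, and only Alox12, the platelet enzyme, was well above background on all 6 arrays, with a change of 0.17 (SE 0.20, adjusted p = 0.794). Alox12b, an epidermal lipoxygenase, was well above background on the 3 control arrays but no soy array, with overlapping values of 6.97, 6.92 and 7.03 in control and 6.90, 6.96 and 6.58 in soy (adjusted p = 0.673), and Aloxe3 was so on soy 3 only (8.28). In leukotriene synthesis 0 of 7 passed. Lta4h, which makes leukotriene B4, changed by 0.04 (SE 0.12, adjusted p = 0.938) and Ltc4s, which makes leukotriene C4, by -0.33 (SE 0.15, adjusted p = 0.478), without a value on control 2, whose spot was an outlier. Mgst3, a microsomal glutathione transferase, changed by 0.68 (SE 0.16, adjusted p = 0.159).

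The prostanoid synthases had 0 of 10 genes past the test, with a median of 0.03. Ptges changed by -0.27 (SE 0.18, adjusted p = 0.627), Ptges3 by -0.05 (adjusted p = 0.883) and the carbonyl reductase Cbr1 by 0.52 (SE 0.16, adjusted p = 0.275). For breakdown and transport 0 of 9 passed, with Cyp4f14, a leukotriene B4 hydroxylase, at -0.54 (SE 0.13, adjusted p = 0.154), Cyp4f15 at 0.35 (adjusted p = 0.478) and the prostaglandin transporter Slco2a1 at 0.06 (adjusted p = 0.881). Eicosanoid receptors gave 0 of 15, and only 4 of them were well above background on all 6 arrays. The brightest receptor was Fpr2, which binds lipoxin A4, at 10.67, 10.57 and 10.85 in control and 10.86, 10.84 and 10.91 in soy (change 0.17, adjusted p = 0.596). The thromboxane receptor gene Tbxa2r changed by 0.29 (SE 0.21, adjusted p = 0.665) and the leukotriene B4 receptor gene Ltb4r1 by 0.16 (SE 0.12, adjusted p = 0.659). Pla2g6 and Abcc4, both outside the rule for named genes, were chosen after their values were seen: the phospholipase Pla2g6 changed by 0.72 (SE 0.22, adjusted p = 0.266) and the exporter Abcc4, which carries prostaglandins, by 0.93 (SE 0.22, adjusted p = 0.155), and neither passed.

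**Figure D4:**
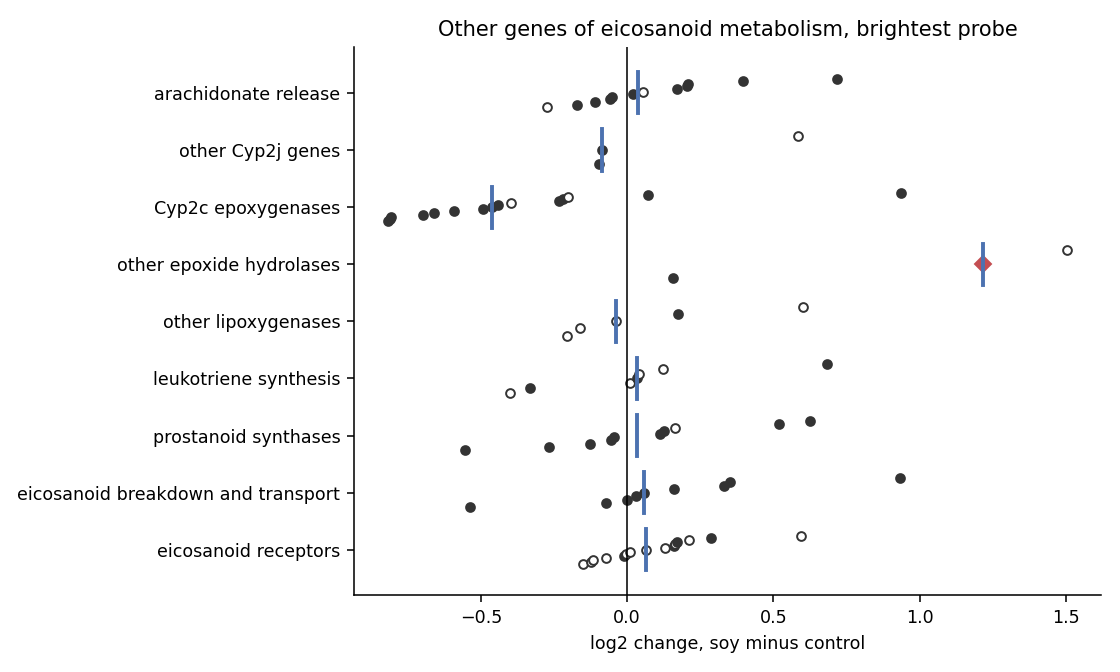
Log2 change (soy minus control) of the 79 other genes of eicosanoid metabolism, by list, from the brightest probe of each gene. The red diamond is Ephx1 (1.22), the 1 gene that passed, open circles are probes not well above background on all 6 arrays, and blue bars are list medians. Most Cyp2c genes (row Cyp2c epoxygenases) lie left of 0 (median -0.46). The medians of the other lists with more than 5 genes lie between 0.03 and 0.06.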

How the data were processed

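Liver RNA of 6 mice was labelled with Cy3 and hybridized to Agilent mouse gene expression arrays (G3, version 2). The authors scanned the arrays and deposited, per the file headers, the scanner output of Agilent Feature Extraction 11.5.1.1. Its median intensity per spot, and that of the local background, had not been normalized. The authors also deposited log2 values of the same arrays, with array medians of 7.33 to 7.34 and values within 0.0705 of those computed here. The methods name raw median signals and R, and how the values were normalized is not given in the sources used here.

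The local background was corrected by normexp with an offset of 50. After control spots were dropped, the arrays were quantile normalized and taken to log2, outlier spots were set to missing, and replicate spots were averaged by probe. The 56605 probes were fitted (soy minus control) by lmFit and eBayes of limma 3.58.1 in R 4.3.3, with Benjamini-Hochberg adjustment over every probe. A gene passed if any of its probes did, and is given by its brightest probe. The fit was tested on simulated data, and no outcome of that test is given here. Symbols came from RefSeq accessions, for 58.3% of probes, through a table of GRCm38.p6. The arrays were annotated on an older build, so no probe positions are given. Tables and plots were made with Python 3.11.15, pandas 2.3.3, scipy 1.17.1 and matplotlib 3.10.9.

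All members are named, and of each pathway or target list the genes that passed (at most 5), or the brightest 3 where fewer than 3 passed. Marker lists of cell types are given by counts, with the markers that bear on a member. Some listed genes are not reported here. The members and lists were chosen with earlier results of these data known. The alternatives changed the background (none, or an offset of 16), the input (processed signal less each array's 75th percentile, or the deposited log2 values), the scaling (cyclic loess, or a 75th-percentile shift), the probes (outlier spots kept, dim probes removed, or the mean over a gene's probes), the model (trend and robust eBayes, slide as a block, replicate number as a block), the call (adjusted p alone) and the arrays (each left out, or differences within slides). MicroRNA sequencing and qRT-PCR were not analysed here.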

Additional observations from a re-analysis of the deposited data

How the results depend on the processing

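Of the 10 members, 0 passed in the reported fit and in every alternative except the processed signal, where 3 did: Cyp2j9 (1.16, adjusted p = 0.0322), Alox5 (0.85, adjusted p = 0.0206) and Ptgs2 (1.19, adjusted p = 0.00177), the last pair never well above background. That signal and the 75th-percentile shift each moved the median change of all probes to 0.13, from -0.01, while for genes well above background on all arrays it was 0.0016 and 0.01. The pathway count was 0 with an offset of 16, cyclic loess, the replicate block (Ephx1 at an adjusted p of 0.0974) or the slide as a block, 2 (Ephx1 and Cyp2c50) with the 75th-percentile shift, only probes well above background or trend and robust eBayes, 14 with the processed signal (8 higher, 6 lower, the lower ones all Cyp2c genes) and 0 to 1 with an array left out. The count over all genes, 122, became 48 with an offset of 16, 5892 with the processed signal (5332 with a probe higher, 615 lower), 313 with only probes well above background, 184 with trend and robust eBayes, 51 with the replicate block, 16 with the slide as a block and 18 to 130 with an array left out. Same-numbered samples correlated at 0.116, -0.057 and 0.106 in their deviations from the group means, so the replicate numbers were not taken as pairs. Changes near 0 turned sign. With an array left out, Cyp2j5 ran from -0.078 to 0.017 (above 0 without control 1 or soy 1), Ptgs1 from -0.041 to 0.17 (below 0 without control 1 or soy 3), Ptgr1 from -0.076 to 0.29 (below 0 without control 3) and Alox5 from -0.082 to 0.17 (below 0 without control 1 or soy 3). Alox5ap stayed above 0 with an array left out, from 0.047 without control 1 to 0.29 without soy 1. Within slide 1, Ptgr1 was -0.18, Alox5ap -0.046 and Alox5 -0.13, and Alox5 was -0.0024 with no background correction. Alox15 was 2.14 within slide 3 and 0.32 within slide 1. Cyp2j6, Cyp2j9 and Ephx2 kept their direction under all alternatives. The cause of these shifts was not tested. Signal near background limits Alox5, Alox15 and Ptgs2.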

Other observations

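Known targets of 2 regulators of lipid and xenobiotic enzymes in liver, PPARA and NRF2, held several genes that passed. Of 22 PPARA targets 5 passed higher, with a median change of 0.64. Of 19 NRF2 targets 3 passed higher, with a median of 0.66, where 0.34% of all genes did. The mean was higher in soy for 19 PPARA targets and lower for 3, and higher for 16 NRF2 targets and lower for 3. Both lists were chosen with earlier results of these data known, so these counts are a description with no test. Acot2, a mitochondrial acyl-CoA thioesterase, was 8.35, 8.31 and 8.74 in control and 9.94, 9.92 and 9.87 in soy (change 1.45, SE 0.13, adjusted p = 0.0130). The other PPARA targets that passed were the fatty acid hydroxylase gene Cyp4a14 (3.28, adjusted p = 0.00785), the pyruvate dehydrogenase kinase gene Pdk4 (1.87, adjusted p = 0.0149), the cytosolic thioesterase gene Acot1 (1.79, adjusted p = 0.0313) and the peroxisomal thiolase gene Acaa1b (1.13, adjusted p = 0.0191). Among NRF2 targets the glutathione transferase gene Gstm1 rose by 0.95 (SE 0.13, adjusted p = 0.0405), Abcc3, an exporter of glucuronides and bile salts, by 0.82 (SE 0.10, adjusted p = 0.0242), and Tkt, transketolase of the pentose phosphate pathway, by 0.78 (SE 0.10, adjusted p = 0.0369).

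Among 9 lymphocyte markers 2 passed higher, where 0.34% of all genes did, 3 were higher without overlap between the groups, where 9.66% did so, and 1 was lower without overlap, where 10.8% did. Of those that passed, Ms4a1 was 6.69, 7.00 and 6.82 in control and 7.60, 7.91 and 7.79 in soy (change 0.93, SE 0.13, adjusted p = 0.0394). The median change of the lymphocyte markers was 0.06. None passed among the markers of hepatocytes (median -0.10), Kupffer cells (0.08), monocytes (-0.09), neutrophils (0.15), eosinophils and mast cells (0.01), platelets (-0.10), endothelial cells (-0.01), stellate cells (-0.12), cholangiocytes (-0.01) and red cells (0.20), nor among 12 male-biased (0.03) and 12 female-biased liver genes (0.08). Several of these medians have no settled sign. That of the Kupffer cell markers was -0.07 without control 1 and 0.33 without control 3, and that of the red cell markers was -0.03 without control 2, -0.07 without soy 2, -0.12 with the slide as a block, and -0.11 and -0.37 within slides 1 and 3.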
